A study of Mus musculus with 6 samples.

Results

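Glucose uptake and glycolysis were followed through 10 genes across all 6 libraries of the series. They are the glucose transporter genes Slc2a1 and Slc2a3, the hexokinase genes Hk1, Hk2 and Hk3, and the later glycolytic genes Pfkl, Aldoa, Pgk1, Pkm and Ldha. They were named by symbol, and all 10 were found among the 28987 genes of the deposited table. The RNA came from sorted bone marrow cells of C57BL/6 mice treated with Mdivi-1 or vehicle, in which mutant CBL and RUNX1 model myelodysplastic syndrome (MDS). Mdivi-1 is used to inhibit Drp1, the GTPase that divides mitochondria. The groups were Ly6G+ mutant myeloid cells from Mdivi-1 mice (2 libraries), Ly6G+ mutant myeloid cells from vehicle mice (2 libraries), mutant stem and progenitor cells (HSCPs) from Mdivi-1 mice (1 library) and HSCPs from vehicle mice (1 library). HSCPs were enriched by the surface receptor CD117 before flow cytometry isolated the mutant clone. Every group carried the mutations, so no library shows unmutated cells. The labels give neither the way the mutations were introduced nor the dose, duration or ages, and they do not tie a library to a mouse. P-values therefore measure the spread between these libraries, which may be technical.

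Glucose enters blood cells through facilitative carriers of the SLC2 family and is trapped inside when a hexokinase adds a phosphate to it. Phosphofructokinase then commits the sugar to glycolysis, aldolase splits it, phosphoglycerate kinase and pyruvate kinase make ATP, and lactate dehydrogenase regenerates the NAD+ that the pathway consumes. Neutrophils have few mitochondria and are known to draw most of their ATP from glycolysis, and stem cells of the marrow are also described as glycolytic. Many steps have several genes whose products differ in affinity, regulation and place in the cell, so the mixture of isoforms is measured beside the total.

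Values are TPM, a share of a library's transcripts corrected for transcript length. On the mm10 assembly Slc2a1 lies at chr4:119108711-119137983 on the plus strand, Slc2a3 at chr6:122727809-122801640 on the minus strand, Hk1 at chr10:62268855-62379908 on the minus strand and Hk2 at chr6:82725025-82774454 on the minus strand. Hk3 lies at chr13:55005985-55021385 and Pfkl at chr10:77986947-78010083, both on the minus strand. Aldoa lies at chr7:126795234-126800751 on the minus strand, and Pgk1 at chrX:106187100-106203699, Pkm at chr9:59656368-59679375 and Ldha at chr7:46841475-46855627 are on the plus strand. The promoter windows of Slc2a1, Hk1, Hk2 and Ldha are printed because these genes passed a test with Mdivi-1 or differed most between the populations among the genes with a window. Each runs from 250 bases before to 50 after a RefSeq start site on GRCm38.p6, 5′ to 3′ on the gene's own strand. Capitals mark ACGTG and GCGTG on either strand, the forms of the core that hypoxia-inducible factors are known to bind, so CACGT and CACGC are their reverse complements. The windows are chr4:119108495-119108794 (plus) for Slc2a1, chr10:62340372-62340671 (minus) for the second Hk1 window, chr6:82774405-82774704 (minus) for Hk2 and chr7:46845554-46845853 (plus) for the first Ldha window.
Slc2a1: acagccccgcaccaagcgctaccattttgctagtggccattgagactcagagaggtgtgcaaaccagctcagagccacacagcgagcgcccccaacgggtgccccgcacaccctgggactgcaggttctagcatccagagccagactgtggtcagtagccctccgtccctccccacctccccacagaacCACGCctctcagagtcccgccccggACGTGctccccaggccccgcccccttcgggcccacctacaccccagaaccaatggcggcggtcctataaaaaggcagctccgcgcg
Hk1: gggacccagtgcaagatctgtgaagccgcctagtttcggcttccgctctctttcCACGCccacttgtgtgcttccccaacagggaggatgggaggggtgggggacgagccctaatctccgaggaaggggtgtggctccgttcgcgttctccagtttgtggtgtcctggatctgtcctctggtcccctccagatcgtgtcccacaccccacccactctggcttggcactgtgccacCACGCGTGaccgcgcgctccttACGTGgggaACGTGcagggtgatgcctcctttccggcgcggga
Hk2: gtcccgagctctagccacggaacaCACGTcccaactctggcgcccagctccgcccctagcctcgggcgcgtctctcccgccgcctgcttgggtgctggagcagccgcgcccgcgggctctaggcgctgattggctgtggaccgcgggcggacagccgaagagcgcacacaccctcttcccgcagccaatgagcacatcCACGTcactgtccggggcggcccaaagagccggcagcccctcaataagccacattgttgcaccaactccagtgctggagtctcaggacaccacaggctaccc
Ldha: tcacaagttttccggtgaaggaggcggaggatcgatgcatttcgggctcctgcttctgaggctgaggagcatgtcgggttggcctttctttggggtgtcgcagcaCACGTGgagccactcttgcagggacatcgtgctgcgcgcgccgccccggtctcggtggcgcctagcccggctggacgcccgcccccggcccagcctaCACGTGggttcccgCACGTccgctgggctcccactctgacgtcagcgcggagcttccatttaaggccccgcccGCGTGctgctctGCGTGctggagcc

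Slc2a1 held 1 ACGTG, beginning at -36 from the start site, and 1 GCGTG on the other strand at -61. Hk2 held 2 ACGTG, both on the other strand, at -226 and -52. The Hk1 window held 2 ACGTG, at 8 and 17, and 3 GCGTG, at -196, -15 and -12, of which the last 2 overlap each other, while its other window held neither. Ldha held 5 ACGTG and 2 GCGTG, and 2 of its stretches spell the palindrome CACGTG, the E-box read by MYC-type factors, which counts as ACGTG on both strands. RefSeq windows were found for 9 of the 10 genes, all but Slc2a3, and gave 14 windows, of which 11 held either core. The Aldoa windows chr7:126799205-126799504 and chr7:126799129-126799428 overlap and hold the same ACGTG, which is counted in both. Of all 32817 mouse windows of this length, 43.8% held ACGTG or GCGTG, 19.6% held ACGTG, 32.4% held GCGTG and 7.15% held CACGTG. A match describes these letters and is not a measured binding site.

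The libraries summed to 963243.1 to 979168.3 TPM, and 11456 to 11930 genes reached 1 TPM in each. Read totals cannot be recovered from TPM, so the depth of each library is unknown and values carry no counting interval. Markers went with the labels: all 14 mature neutrophil markers, Ly6g among them, were higher in Ly6G+ cells, beside 22.2% of all genes tested. Of 9 stem and progenitor markers 8, Kit among them, were lower, beside 50.3% of all genes. Other lists differed too, among them neutrophil precursor (5 of 6 lower), erythroid (9 of 10 lower) and monocyte and macrophage markers (6 of 8 higher, 2 lower). The HSCP libraries were not free of neutrophil transcripts, since the 14 mature markers summed to 87107 TPM with Mdivi-1 and 96294 TPM with vehicle there, against 258408 to 268624 TPM in Ly6G+ libraries. The calprotectin genes S100a8 and S100a9 alone took 19.69 to 20.95% of TPM in Ly6G+ libraries and 7.06 to 7.7% in HSCP libraries. What a few such genes take lowers every other gene's share, so values between the populations were also scaled by the median of gene ratios and by the upper quartile.

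The most abundant of the 10 transcripts in both populations was Pkm, which encodes the pyruvate kinase of non-liver tissues, and the transporter transcript Slc2a1 was the lowest by its mean. In Ly6G+ cells the order of mean TPM was Pkm (960.4 ± 25.5), Aldoa (600.0 ± 61.9), Pgk1 (320.6 ± 2.22), Ldha (306 ± 8.71), Hk3 (249.5 ± 21.6), Slc2a3 (212 ± 5.99), Hk1 (60.8 ± 3.31), Hk2 (34.4 ± 6.83), Pfkl (26.0 ± 3.64) and Slc2a1 (25.9 ± 7.01; SD, n = 4). The ranges of Hk2 and Pfkl overlapped, as did those of Pfkl and Slc2a1, and no other neighbours in this order overlapped. In HSCPs the order was Pkm (935 ± 32.4), Aldoa (699.7 ± 46.3), Ldha (669 ± 107), Pgk1 (423 ± 25.5), Hk3 (230.4 ± 22.3), Hk1 (128 ± 1.44), Slc2a3 (54.5 ± 8.09), Pfkl (45.5 ± 3.10), Hk2 (26.5 ± 1.54) and Slc2a1 (13.7 ± 0.317; SD, n = 2 over both treatments). Only Aldoa and Ldha overlapped as neighbours there. An SD given for a whole population, here and below, spans both treatments and is not the spread of replicates alone. Together the 10 genes summed to 2776 and 2672 TPM in Ly6G+ Mdivi-1 libraries, 2823 and 2909 TPM in Ly6G+ vehicle libraries, 3353 TPM in the HSCP Mdivi-1 library and 3097 TPM in the HSCP vehicle library.

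**Figure D1:**
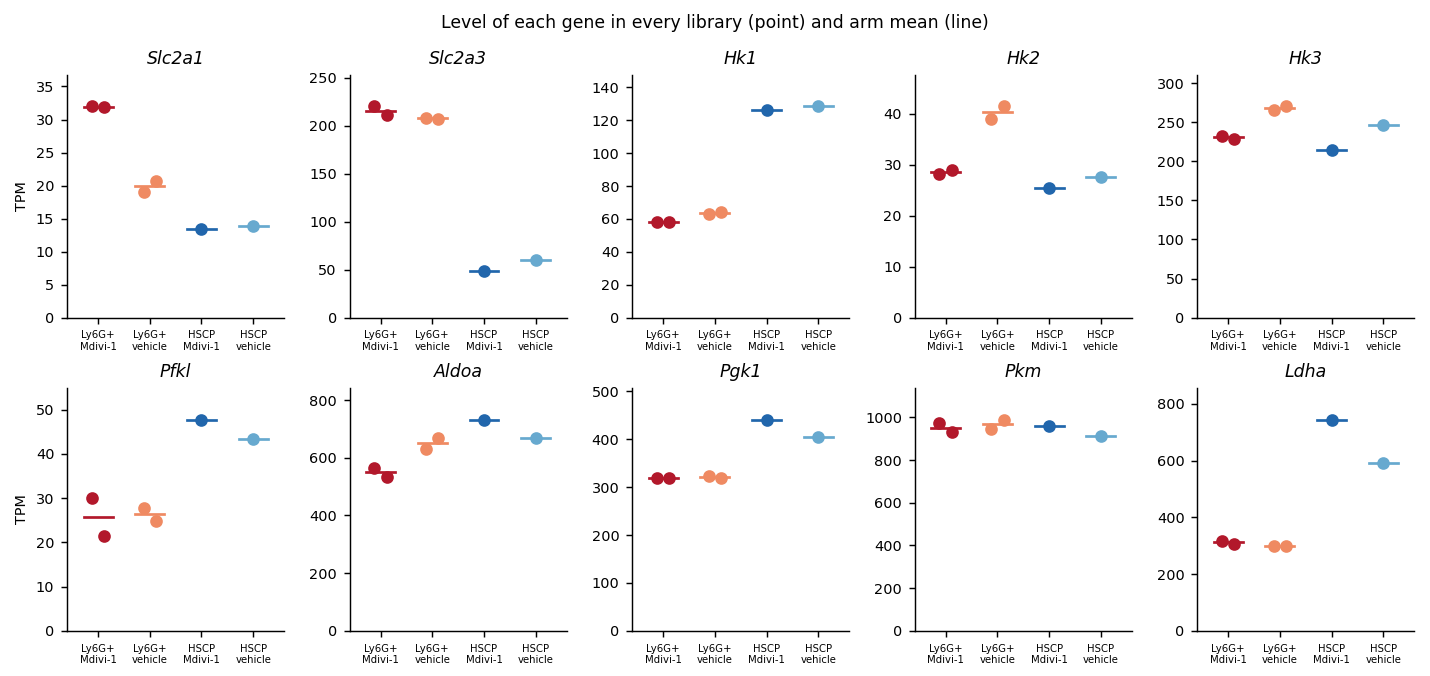
TPM of each of the 10 genes (vertical axes, from 0) in every library (points) of the 4 arms, with arm means as lines. Slc2a1 stands near 32 TPM in both Ly6G+ Mdivi-1 libraries and at 19.0 and 20.7 TPM in Ly6G+ vehicle libraries, and Ldha and Hk1 are highest in the HSCP libraries.

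Whether Mdivi-1 altered the pathway in Ly6G+ cells was asked with 2 libraries per arm. The transporter transcript Slc2a1 was higher with Mdivi-1, the hexokinase transcript Hk2 was lower, and the other 8 genes did not pass the test. The test was limma on log2(TPM + 1) over the 11775 genes that reached 1 TPM in 2 or more libraries, and a gene passed at a Benjamini-Hochberg adjusted p under 0.05. On this scale the change of a low gene is understated. Among all genes tested, 6.7% passed, 2.46% as higher and 4.24% as lower, against 1 higher and 1 lower of the 10. Of the passing genes 36.8% were higher on TPM as deposited, a share that scaling by the median of ratios moved to 49.1% and scaling by the upper quartile to 50.3%. The median change of the 10 genes was -0.04, beside -0.05 for all genes, and turned to 0.02 after either of those scalings.

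Slc2a1 encodes GLUT1, the widely expressed carrier that sets basal glucose uptake in many cells. It stood at 32.0 and 31.9 TPM in Ly6G+ Mdivi-1 libraries, against 19.0 and 20.7 TPM in Ly6G+ vehicle libraries. The arms did not overlap, and both Mdivi-1 libraries lay well above both vehicle libraries. The mean was 31.9 ± 0.104 TPM with Mdivi-1 and 19.9 ± 1.24 TPM with vehicle (SD, n = 2 each), a ratio of 1.61 and a log2 change of 0.66 with SE 0.0753 and a 95% interval of 0.47 to 0.85 (limma adjusted p = 0.0166). Slc2a3 encodes GLUT3, a carrier of high affinity that is typical of neurons and leukocytes. It stood at 220.3 and 210.7 TPM with Mdivi-1 and at 208 and 207 TPM with vehicle, which did not overlap but lay close together (log2 change 0.05, 95% interval -0.08 to 0.19, limma adjusted p = 0.575). In bulk libraries, fewer cells of a type and less RNA per cell cannot be told apart, for these genes and all that follow.

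Hk2 encodes the inducible hexokinase that can dock on mitochondria. It stood at 28.2 and 29.0 TPM in Ly6G+ Mdivi-1 libraries, against 39.1 and 41.5 TPM in Ly6G+ vehicle libraries, again without overlap. The mean was 28.6 ± 0.573 TPM with Mdivi-1 and 40.3 ± 1.71 TPM with vehicle (SD, n = 2 each), a ratio of 0.710 and a log2 change of -0.48 with SE 0.0674 and a 95% interval of -0.65 to -0.31 (limma adjusted p = 0.027). Hk3, the hexokinase typical of granulocytes, which lacks the mitochondrial docking sequence, had 232 and 229 TPM with Mdivi-1 and 265 and 271 TPM with vehicle. Its arms did not overlap either, but its log2 change of -0.21 (95% interval -0.34 to -0.09) did not pass (limma adjusted p = 0.0702). Hk1, the hexokinase of most tissues and also a mitochondrial one, had 58.0 and 57.9 TPM with Mdivi-1 and 62.9 and 64.4 TPM with vehicle (log2 change -0.13, 95% interval -0.28 to 0.01, limma adjusted p = 0.229). The 3 genes summed to 319 and 316 TPM with Mdivi-1 and to 367 and 377 TPM with vehicle, so each and their sum were lower in both Mdivi-1 libraries, while only Hk2 passed.

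**Figure D2:**
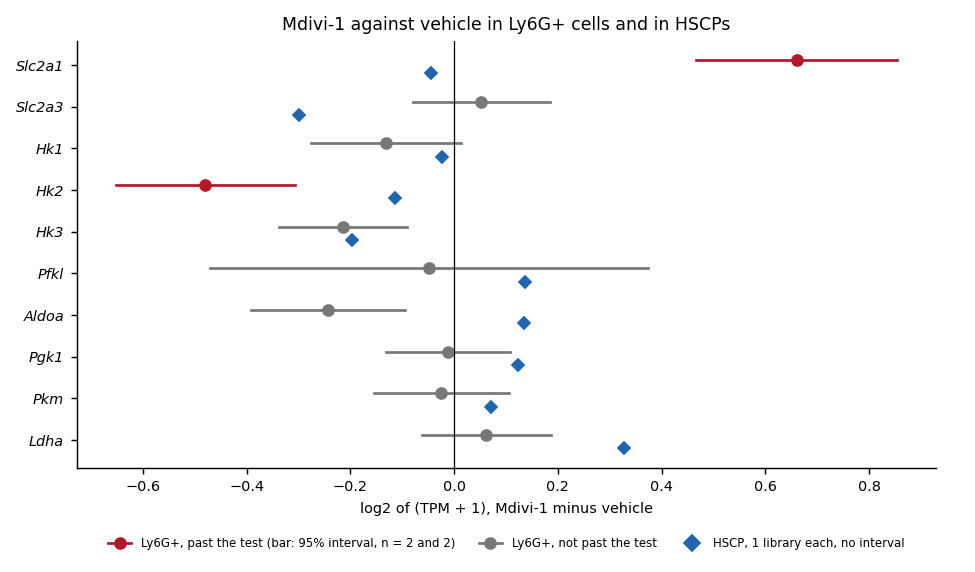
Log2 difference, Mdivi-1 minus vehicle, for each gene in Ly6G+ cells (circles with 95% intervals, n = 2 and 2) and in HSCPs (diamonds, 1 library each, no interval). In Ly6G+ cells Slc2a1 is at 0.66 and Hk2 at -0.48, both in red as past the limma test, and the other 8 circles lie between -0.24 and 0.06.

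Among the later enzymes, none passed in Ly6G+ cells. Aldoa, the aldolase of muscle and most blood cells, had 565 and 533 TPM with Mdivi-1 and 632 and 669.7 TPM with vehicle. These arms did not overlap, with a log2 change of -0.24 (95% interval -0.39 to -0.10, limma adjusted p = 0.0782). Ldha, which encodes the lactate dehydrogenase subunit that favours lactate formation, had 317 and 307 TPM with Mdivi-1 and 298 and 300.4 TPM with vehicle (log2 change 0.06, 95% interval -0.06 to 0.19, limma adjusted p = 0.48). Pfkl, the liver-type phosphofructokinase, spread more within an arm than between arms, with 29.9 and 21.5 TPM for Mdivi-1 and 27.8 and 24.9 TPM for vehicle (log2 change -0.05, 95% interval -0.47 to 0.37, limma adjusted p = 0.885). Pgk1, which makes the first ATP of the pathway, had 320.0 and 318.6 TPM with Mdivi-1 and 323.8 and 319.9 TPM with vehicle (log2 change -0.01, limma adjusted p = 0.906). Pkm had 972 and 932 TPM with Mdivi-1 and 947 and 989.7 TPM with vehicle (log2 change -0.02, 95% interval -0.16 to 0.11, limma adjusted p = 0.806). The arms of Pfkl, Pgk1 and Pkm overlapped, and their small differences turned positive after median-of-ratios scaling. Values of Pgk1, Pkm, Ldha and Aldoa depend on how kallisto divided shared reads, since 45.3%, 65.3%, 80.4% and 86.5% of their 31-mers, in that order, occur in no other gene, with the processed copies Pgk1-rs7, Gm6560, Gm5452 and Aldoart1 sharing most. For the other 6 genes at least 97.5% were unique.

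In all, 7 of the 10 genes had Ly6G+ arms that did not overlap, beside 57.7% of all genes tested, and 4 of the 10 had an unadjusted p under 0.05, beside 25.7% of all genes. The calls of Slc2a1 and Hk2 both rest on all 4 libraries. When any single Ly6G+ library was left out, 0 of the 10 genes passed in limma, while 3 or 4 had an unadjusted p under 0.05, and the adjusted p was 0.0611 to 0.104 for Slc2a1 and 0.0838 to 0.159 for Hk2. The log2 changes themselves stayed at 0.60 to 0.72 for Slc2a1 and at -0.52 to -0.44 for Hk2.

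Markers of other blood cells moved with treatment in the same Ly6G+ libraries. The counts of falls and rises that follow stand beside 4.24% of all genes lower and 2.46% higher with Mdivi-1. The 10 B cell markers summed to 23.6 and 24.5 TPM with Mdivi-1 and to 146 and 148 TPM with vehicle, and 9 fell. The 6 basophil and mast cell markers summed to 166 and 175 TPM with Mdivi-1 and to 496 and 504 TPM with vehicle, and all 6 fell. The 8 megakaryocyte and platelet markers summed to 119 and 103 TPM with Mdivi-1 and to 264 and 261 TPM with vehicle, and 7 fell. Erythroid markers summed to 2550.2 and 2589 TPM with Mdivi-1 and to 3232 and 3320.0 TPM with vehicle, and 4 of 10 fell. Falls were also called for 4 of 7 dendritic cell markers with 1 rise, 3 of 9 stem and progenitor markers, 1 of 6 T and NK cell markers, 1 of 6 neutrophil precursor markers and 1 of 8 monocyte markers with 1 rise, and for 0 of 5 eosinophil markers. Of 14 mature neutrophil markers 6 rose and 3 fell, and their sums overlapped, at 258408 and 268624 TPM with Mdivi-1 and 268408 and 259501 TPM with vehicle. None of these lists was at 0 throughout. The part of these cells in the values of Slc2a1 and Hk2 was not tested.

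In HSCPs, with 1 library per arm and so no test, none of the 10 genes differed by 1.5-fold. Beside them, 2.62% of 7987 genes with a mean of at least 10 TPM did, 0.952% as higher and 1.67% as lower with Mdivi-1. Slc2a1 had 13.4 TPM in the Mdivi-1 library and 13.9 TPM in the vehicle library (log2 ratio -0.04), and Slc2a3 had 48.8 TPM with Mdivi-1 and 60.3 TPM with vehicle (log2 ratio -0.30). Hk1 had 127 TPM with Mdivi-1 and 129 TPM with vehicle (log2 ratio -0.02). Hk2 had 25.4 TPM with Mdivi-1 and 27.6 TPM with vehicle (log2 ratio -0.11), and Hk3 had 215 TPM with Mdivi-1 and 246 TPM with vehicle (log2 ratio -0.20). Ldha showed the largest difference of the 10, with 745 TPM in the Mdivi-1 library and 593 TPM in the vehicle library (log2 ratio 0.33), and Pfkl, Aldoa, Pgk1 and Pkm had log2 ratios of 0.14, 0.13, 0.12 and 0.07. The transporters and hexokinases were thus all lower, and the 5 later enzymes all higher, in the HSCP Mdivi-1 library, by differences whose replicate spread is unknown. Marker sums also differed between the HSCP libraries. Megakaryocyte and platelet markers summed to 162 TPM with Mdivi-1 and 328 TPM with vehicle, and eosinophil markers to 380 and 679 TPM. Among the marker lists, only neutrophil precursor (15857.8 and 14737.5 TPM) and erythroid (5609 and 5221 TPM) sums were higher with Mdivi-1. The part of cell makeup in these log2 ratios was not tested. The median of the 10 log2 ratios was 0.02, beside 0.04 for all genes.

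The treatment effect in Ly6G+ cells minus that in HSCPs was tested in limma over 12338 genes, on the assumption that the lone HSCP libraries vary like the Ly6G+ pairs. It was 0.70 for Slc2a1 (95% interval 0.35 to 1.06, limma adjusted p = 0.24), 0.35 for Slc2a3 (95% interval 0.11 to 0.59, limma adjusted p = 0.323), -0.37 for Hk2 (95% interval -0.67 to -0.06, limma adjusted p = 0.391) and -0.38 for Aldoa (95% interval -0.64 to -0.12, limma adjusted p = 0.329). For Ldha it was -0.27 (95% interval -0.48 to -0.05, limma adjusted p = 0.389). None of the 10 genes passed, as none of all genes did (0.0%), while 5 of the 10 and 11.3% of all genes had an unadjusted p under 0.05. The values above are those of these 5 genes, and Hk1, Hk3, Pfkl, Pgk1 and Pkm did not reach that mark. A difference in treatment response between the populations was therefore not shown for any of these genes.

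How the populations differ was asked with all 6 libraries and treatment as a covariate. On TPM as deposited, Ly6G+ cells had more transcript of both glucose transporters and of Hk2 than HSCPs, and less of Hk1, Pfkl, Pgk1 and Ldha. The call of Pgk1 depended on the scaling, and that of Hk2 on the HSCP vehicle library and on the treatment covariate, as given below. Of all 12338 genes tested, 72.4% passed, 22.2% as higher and 50.3% as lower in Ly6G+, so 7 of 10, with 3 higher and 4 lower, is close to the background, as are the 8 of 10 and 74.9% of all genes with an unadjusted p under 0.05. Over all genes the median change was -0.35 as deposited, -0.01 when scaled by the median of ratios and -0.07 when scaled by the upper quartile, and the share of passing genes that were higher was 30.6%, 49.8% and 46.5% in that order. The median of the 10 genes was -0.09, which is above that of all genes. For 7 of the 10 the libraries of the populations did not overlap, as for 76.1% of all genes, and Hk3, Aldoa and Pkm overlapped.

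Slc2a3 differed most. Its Ly6G+ libraries (220.3 and 210.7 TPM with Mdivi-1, 208 and 207 TPM with vehicle) stood against 48.8 TPM in the HSCP Mdivi-1 and 60.3 TPM in the HSCP vehicle library. Every Ly6G+ library was more than 3-fold above either HSCP library, and the log2 change was 1.94 with SE 0.0877 (95% interval 1.73 to 2.16, limma adjusted p = 1.14e-05), or 2.29 above the median of all genes. Slc2a1 averaged 25.9 ± 7.01 TPM in Ly6G+ (SD, n = 4 over both treatments) and 13.7 ± 0.317 TPM in HSCPs (SD, n = 2 over both treatments), with a log2 change of 0.84 (95% interval 0.46 to 1.22, limma adjusted p = 0.003). The estimate for Slc2a1 was 1.19 within Mdivi-1 libraries and 0.49 within vehicle libraries, each resting on 1 HSCP library. The gap between these values is the difference between treatment effects tested above, which did not pass. Leaving out the HSCP vehicle or the HSCP Mdivi-1 library gives these same contrasts by construction and is no separate check. Summed, the transporters made 252 and 243 TPM in Ly6G+ Mdivi-1 and 227 and 228 TPM in Ly6G+ vehicle libraries, against 62.3 TPM in the HSCP Mdivi-1 and 74.1 TPM in the HSCP vehicle library.

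Hk1 was lower in Ly6G+, at 60.8 ± 3.31 TPM (SD, n = 4), against 128 ± 1.44 TPM in HSCPs (SD, n = 2), with a log2 change of -1.06 and SE 0.0585 (limma adjusted p = 1.94e-05), -0.71 relative to the median of all genes. Hk2 was higher in Ly6G+ with a log2 change of 0.35 (95% interval 0.11 to 0.58, limma adjusted p = 0.0169). That call was lost, and the change fell to 0.16, without the HSCP vehicle library. Keeping only Mdivi-1 libraries gives the same contrast, again 0.16, with 1 HSCP library. The call was also lost without the treatment covariate (limma adjusted p = 0.116). Hk3 did not pass on TPM as deposited, with 249.5 ± 21.6 TPM in Ly6G+ (SD, n = 4) and 230.4 ± 22.3 TPM in HSCPs (SD, n = 2), and the log2 change was 0.11 (limma adjusted p = 0.0818). It passed as higher in Ly6G+ under median-of-ratios scaling (0.49, limma adjusted p = 0.000301) and after S100a8 and S100a9 were removed (0.31, limma adjusted p = 0.00151).

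Ldha had 317 and 307 TPM in Ly6G+ Mdivi-1 and 298 and 300.4 TPM in Ly6G+ vehicle libraries, against 745 TPM in the HSCP Mdivi-1 and 593 TPM in the HSCP vehicle library, so every Ly6G+ library was far below both HSCP libraries. Its log2 change was -1.12 with SE 0.0723 (95% interval -1.29 to -0.94, limma adjusted p = 3.12e-05), and under median-of-ratios scaling it was -0.74 (limma adjusted p = 8.58e-05). Pfkl averaged 26.0 ± 3.64 TPM in Ly6G+ (SD, n = 4) and 45.5 ± 3.10 TPM in HSCPs (SD, n = 2), and the log2 change was -0.79 (limma adjusted p = 0.00202), and under median-of-ratios scaling it was -0.43 (limma adjusted p = 0.0251). For Pgk1 and Pkm the scaling decided whether the gene passed, and for Aldoa it turned the sign. Pgk1 was lower on TPM as deposited (-0.40, limma adjusted p = 0.000761), but under median-of-ratios scaling it was at -0.02 (limma adjusted p = 0.706) and under upper-quartile scaling at -0.08 (limma adjusted p = 0.181). Pkm was at 0.04 as deposited (limma adjusted p = 0.532) and passed as higher under median-of-ratios scaling (0.42, limma adjusted p = 0.000427) and under upper-quartile scaling (0.35, limma adjusted p = 0.000804). Aldoa was at -0.23 as deposited (limma adjusted p = 0.0659) and under median-of-ratios scaling at 0.15 (limma adjusted p = 0.12), and it passed as lower without the HSCP vehicle library (-0.41, limma adjusted p = 0.00512) or without Ly6G+ vehicle replicate 2 (-0.27, limma adjusted p = 0.0483). The splice forms M1 and M2 of Pkm share a gene and cannot be told apart in a table of genes.

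**Figure D3:**
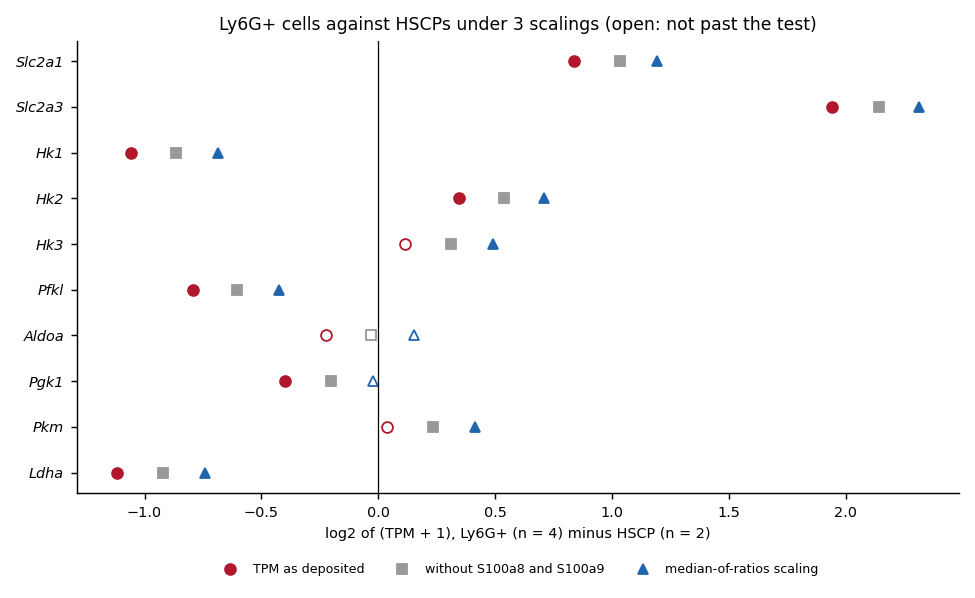
Log2 difference, Ly6G+ (n = 4) minus HSCP (n = 2), for each gene on TPM as deposited, without S100a8 and S100a9, and after median-of-ratios scaling; filled symbols passed the limma test and open ones did not. Slc2a3, Slc2a1 and Hk2 stay to the right of 0 and Hk1, Pfkl and Ldha to the left under all of these scalings, while Aldoa changes side.

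Shares within a gene family do not depend on how a library is scaled, since every isoform of the family is divided by their sum in the same library. Hk3 was the main hexokinase transcript everywhere, and the second place of Hk1 was larger in HSCPs. Hk1 made 18.2% and 18.3% of hexokinase TPM in Ly6G+ Mdivi-1 and 17.1% and 17.1% in Ly6G+ vehicle libraries, against 34.5% in the HSCP Mdivi-1 and 32.0% in the HSCP vehicle library. Hk3 made 71.9 to 72.9% in Ly6G+ libraries, against 58.5% in the HSCP Mdivi-1 and 61.2% in the HSCP vehicle library. Hk2 made 8.85% and 9.17% with Mdivi-1 and 10.6% and 11.02% with vehicle in Ly6G+ cells, against 6.93% in the HSCP Mdivi-1 and 6.86% in the HSCP vehicle library. Hkdc1, which encodes a related hexokinase, held at most 0.00523%.

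Between the populations the share of Hk1 differed by -15.6 percentage points, that of Hk3 by 12.5 and that of Hk2 by 3.02. None of these shares overlapped, as the TPM of 76.1% of all genes tested did not. The exact two-sided permutation p was 0.0667 for each, the smallest that 4 against 2 libraries allow, and 0.0857 after Benjamini-Hochberg adjustment over 9 shares. Slc2a1 made 12.7% and 13.1% of the TPM of both carriers in Ly6G+ Mdivi-1 and 8.36% and 9.10% in Ly6G+ vehicle libraries, against 21.6% in the HSCP Mdivi-1 and 18.7% in the HSCP vehicle library. Thus Slc2a3 was the main carrier transcript in every library, and its share was higher in Ly6G+ cells although Slc2a1 was itself higher there in TPM. Among phosphofructokinases, Pfkp, the platelet type, made 57.0 to 63.5% in Ly6G+ libraries, against 45.4% in the HSCP Mdivi-1 and 43.7% in the HSCP vehicle library, a difference of 15.03 percentage points. Pfkl and Pfkm, the muscle type, held 7.46 and 7.57 points less in Ly6G+, and each of these differences, like that of Slc2a1 (-9.33), had the same exact permutation p of 0.0667. Aldoa made 99.8 to 99.9% of aldolase TPM in every library, with an exact permutation p of 0.6 between the populations. Ldha made 87.9 to 92.2% of lactate dehydrogenase TPM in Ly6G+ libraries, against 93.8% in the HSCP Mdivi-1 and 90.7% in the HSCP vehicle library, which overlapped (exact permutation p = 0.267).

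With Mdivi-1 in Ly6G+ cells, the share of Slc2a1 differed by 4.19 percentage points, that of Ldha by 3.50, that of Hk1 by 1.16, that of Hk3 by 0.658, that of Hk2 by -1.82 and that of Pfkm by -1.10. None of these overlapped between the arms, as the TPM of 57.7% of all genes tested did not. The exact permutation p was 0.333 for each, which is the smallest that 2 against 2 libraries allow, so this design cannot pass 0.05. Ldha made 91.3% and 92.2% with Mdivi-1 and 88.7% and 87.9% with vehicle, where the level of Ldhb, the subunit that favours pyruvate, was 30.2 and 26.0 TPM with Mdivi-1 and 38.0 and 41.5 TPM with vehicle (log2 change -0.49, limma adjusted p = 0.0544). The shares of Pfkl, Pfkp and Aldoa overlapped between the arms.

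**Figure D4:**
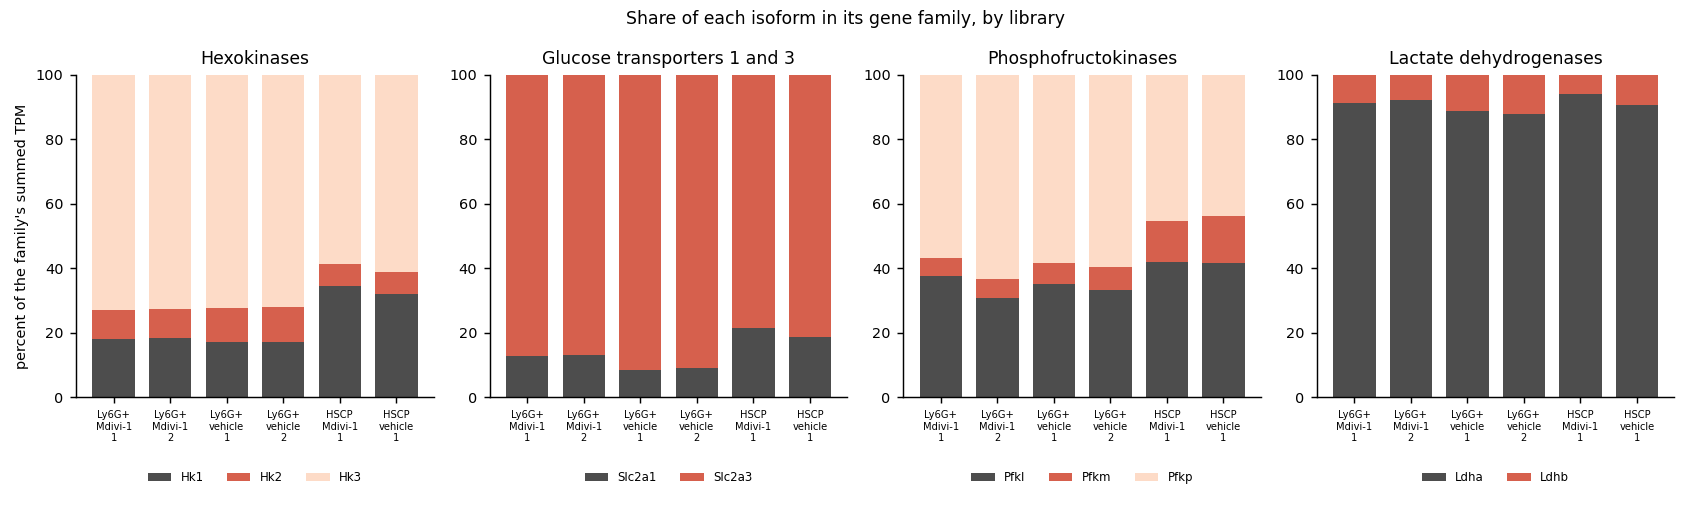
Percent of a family's summed TPM held by each isoform (stacked from the bottom in legend order) in each of the 6 libraries, for hexokinases, glucose transporters 1 and 3, phosphofructokinases and lactate dehydrogenases. Hk1 takes 17.1 to 18.3% of hexokinase TPM in Ly6G+ libraries and 32.0 to 34.5% in HSCP libraries, and Hk3 takes most of the rest.

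Of the 82 tested genes of the 8 wider lists, each counted once, 4 rose and 5 fell with Mdivi-1 in Ly6G+ cells, which is 4.88% and 6.1% of them, beside 2.46% and 4.24% of all genes. With no filter on low values it was 2 of 96 genes (2.08% beside 1.13% of all genes), and with the replicate block 5 of 82 (6.1% beside 2.76%). Of 14 other glycolytic enzyme genes tested 1 fell and 0 rose, with a median of -0.05, equal to that of all genes. It was Adpgk, whose product phosphorylates glucose with ADP in the endoplasmic reticulum, with 247 and 236 TPM in Mdivi-1 libraries and 367 and 357 TPM in vehicle libraries (log2 change -0.58, limma adjusted p = 0.00914). With a filter of 5 TPM 1 rose and 4 fell of 13 tested. The enolase gene Eno3 (0.49, limma adjusted p = 0.0478) then passed as higher. Ldhb (limma adjusted p = 0.0377), the phosphoglycerate mutase gene Pgam2 (limma adjusted p = 0.0464) and the pyruvate kinase gene Pklr (limma adjusted p = 0.0417) passed as lower beside Adpgk. Eno3 also passed as higher under median-of-ratios (limma adjusted p = 0.0490) and upper-quartile scaling (limma adjusted p = 0.0474). Pklr also passed as lower with the replicate block (limma adjusted p = 0.0300), and Ldhb without S100a8 and S100a9 (limma adjusted p = 0.0466). Of 3 other carrier genes tested 1 rose, Slc2a6, a carrier of lysosomal membranes, with 43.8 and 39.3 TPM with Mdivi-1 and 28.2 and 26.9 TPM with vehicle (log2 change 0.57, limma adjusted p = 0.0267). Of 15 regulators 1 rose, Txnip, which encodes a thioredoxin-binding arrestin that lowers glucose uptake and is itself induced by glucose. Txnip stood at 560.3 and 547 TPM with Mdivi-1 and at 391 and 376 TPM with vehicle, without overlap (log2 change 0.53, limma adjusted p = 0.0101). Of the 31-mers of Txnip 82.6% occur in no other gene, with Gm15441 sharing most. Slc2a1, Slc2a6 and Txnip were thus higher with Mdivi-1, and Hk2 and Adpgk, which encode glucose-phosphorylating enzymes, were lower. The other carriers tested, Slc2a8 (ratio of means 0.713) and Slc2a9 (0.892), were lower with Mdivi-1 and did not pass. The median log2 change of Slc2a6, Slc2a8 and Slc2a9 was -0.16, beside -0.05 for all genes.

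Of 7 pentose phosphate genes 2 fell, the transketolase gene Tkt (-0.33, limma adjusted p = 0.0364) and the lactonase gene Pgls (-0.86, limma adjusted p = 0.0497). Under median-of-ratios and under upper-quartile scaling, 1 of the 7 instead passed as higher and 1 as lower. The only gene of this list with a higher mean with Mdivi-1 was G6pdx. It had 436 and 412 TPM with Mdivi-1 and 362 and 355 TPM with vehicle (ratio of means 1.18). For Pgls 80.5% of the 31-mers occur in no other gene, with Fam129c sharing most. Of 15 genes of lactate and pyruvate handling 1 rose, Dlat, a subunit of pyruvate dehydrogenase (0.38, limma adjusted p = 0.0487), and of 12 genes of glycogen and glucose 6-phosphate 1 fell, the glycogen synthase gene Gys1 (-0.38, limma adjusted p = 0.0365). Of 5 genes that make or remove fructose 2,6-bisphosphate, the activator of phosphofructokinase, 0 passed in limma. Of 13 targets of hypoxia-inducible factor outside glycolysis 1 rose, the mTOR inhibitor gene Ddit4 (0.83, limma adjusted p = 0.0195), and 1 fell, the angiogenic factor gene Vegfa (-0.36, limma adjusted p = 0.0403). With any single Ly6G+ library left out, Slc2a6, Tkt, Dlat, Gys1, Ddit4 and Vegfa did not pass (limma adjusted p of 0.0538 to 0.159 for Slc2a6 and 0.0744 to 0.117 for Ddit4). Adpgk, Txnip and Pgls did not pass without either vehicle library (limma adjusted p of up to 0.0911, 0.104 and 0.214), and Pgls was at -1.11 without Mdivi-1 replicate 1 and at -0.61 without Mdivi-1 replicate 2. With no filter Slc2a6, Ddit4, Tkt, Dlat, Gys1, Vegfa and Pgls did not pass, and with the replicate block Tkt, Dlat, Gys1, Vegfa and Pgls did not. Pgls and Vegfa also did not pass under either other scaling, nor Gys1 under upper-quartile scaling, nor Pgls with a pseudocount of 0.1 or in the fit of all 6 libraries. Adpgk and Txnip passed under all 9 of these other settings (limma adjusted p of up to 0.0323 and 0.0334).

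**Figure D5:**
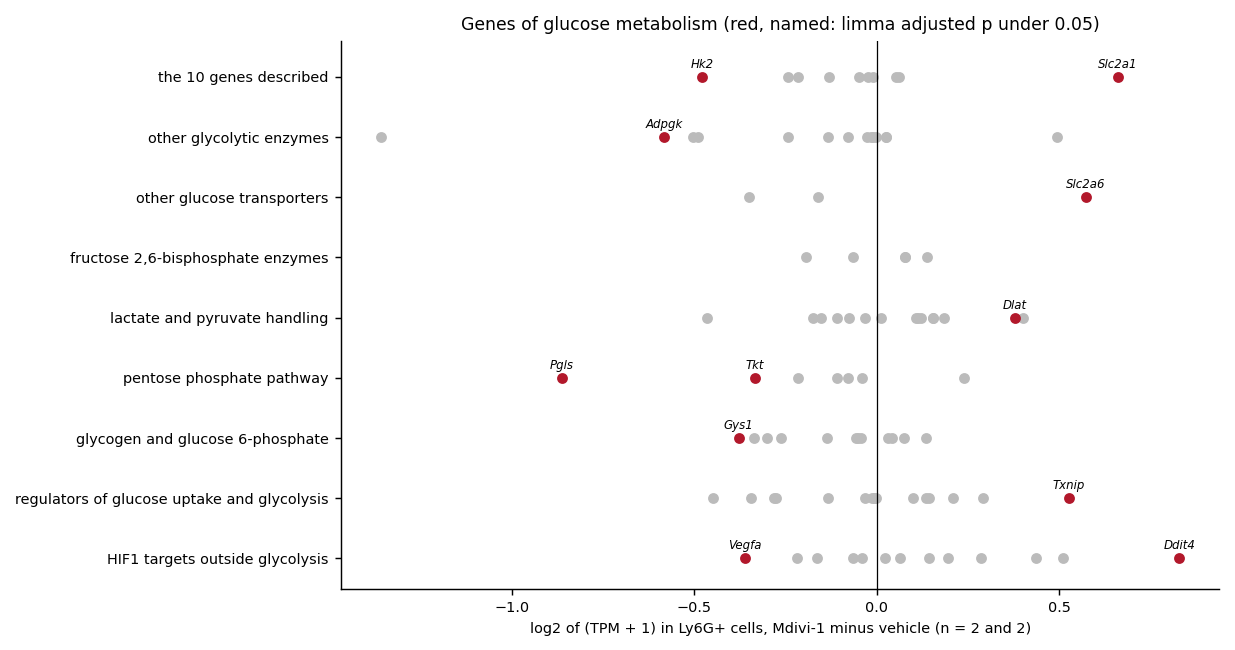
Log2 difference in Ly6G+ cells, Mdivi-1 minus vehicle (n = 2 and 2), for each tested gene (point) of the 10 genes described and of 8 lists of glucose metabolism (rows). Red points with names passed the limma test over all genes, and most grey points lie within 0.5 of 0.

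In HSCPs, 4 of the 68 genes of the wider lists with a mean of at least 10 TPM passed the 1.5-fold mark, which is 5.88% beside 2.62% of all genes, with no replicate check. Dlat (log2 ratio 0.61), Myc (0.80) and Ddit4 (1.06) were higher and Pklr, the liver and red cell pyruvate kinase, was lower (-0.87) in the Mdivi-1 library. Dlat had 49.7 TPM in the Mdivi-1 library and 32.1 TPM in the vehicle library, and Ddit4 had 18.5 TPM with Mdivi-1 and 8.32 TPM with vehicle. Both were also higher with Mdivi-1 in Ly6G+ cells, where Dlat had 22.3 and 21.8 TPM with Mdivi-1 and 16.5 and 17.0 TPM with vehicle, and Ddit4 had 11.7 and 11.01 TPM with Mdivi-1 and 5.70 and 6.22 TPM with vehicle. Myc overlapped between the Ly6G+ arms, at 14.9 and 13.9 TPM with Mdivi-1 and 12.5 and 14.3 TPM with vehicle. Pklr was lower there without overlap, at 2.50 and 1.52 TPM with Mdivi-1 and 8.54 and 5.08 TPM with vehicle.

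Between the populations, 26 of the 82 tested genes of the wider lists were higher and 39 lower in Ly6G+ (31.7% and 47.6%, beside 22.2% and 50.3% of all genes), and after median-of-ratios scaling 38 were higher and 26 lower (46.3% and 31.7%, beside 33.7% and 34.0% of all genes). The counts per list that follow are a description beside these shares of all genes. Of 14 other glycolytic enzyme genes 2 were higher and 9 lower in Ly6G+ (median -0.51, beside -0.35 for all genes), and after median-of-ratios scaling 4 were higher and 7 lower. The muscle-type phosphofructokinase gene Pfkm (-1.50) and the triose phosphate isomerase gene Tpi1 (-1.23) were lower and Adpgk (1.35) was higher. Pfkp, the most abundant phosphofructokinase transcript of Ly6G+ cells, had 45.1 ± 0.810 TPM there (SD, n = 4) and 48.8 ± 4.42 TPM in HSCPs (SD, n = 2; log2 change -0.11, limma adjusted p = 0.207). All 3 other carriers tested passed, Slc2a6 (2.12) and the urate carrier Slc2a9 (0.79) as higher and Slc2a8 (-1.16) as lower. Slc2a6 had 26.9 to 43.8 TPM in the Ly6G+ libraries, against 7.24 TPM in the HSCP Mdivi-1 and 6.82 TPM in the HSCP vehicle library.

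The lactate carriers went opposite ways: Slc16a3, which encodes the lactate exporter MCT4, was higher in Ly6G+ (1.63) and Slc16a1, which encodes MCT1, was lower (-1.85). Slc16a3 averaged 153 ± 8.39 TPM in Ly6G+ (SD, n = 4) and 48.8 ± 2.16 TPM in HSCPs (SD, n = 2), and Slc16a1 averaged 8.88 ± 0.656 TPM in Ly6G+ and 34.7 ± 3.25 TPM in HSCPs. Of the 15 genes of lactate and pyruvate handling 3 were higher and 11 lower, including the pyruvate dehydrogenase kinase gene Pdk1 (-1.35) and Dlat (-1.02), and after median-of-ratios scaling 3 were higher and 6 lower. Of the 7 pentose phosphate genes, G6pdx (1.17) and Pgd (0.87), which encode the NADPH-producing dehydrogenases, and Taldo1 were higher, while Pgls (-1.52) and Rpia (-1.05) were lower. In the glycogen list 5 were higher, led by the phosphorylase gene Pygl (1.79), and 6 lower, led by the glucose 6-phosphatase gene G6pc3 (-2.36) and by Fbp1 (-1.54), which encodes fructose bisphosphatase. Of the fructose 2,6-bisphosphate genes Pfkfb4 (1.58) was higher, Tigar (-1.22) and Pfkfb1 (-0.81) were lower, and Pfkfb3 was at 0.07 (limma adjusted p = 0.308). After median-of-ratios scaling all 5 genes of this list, Pfkfb3 among them, passed, 3 as higher and 2 as lower. With that scaling the pentose phosphate list had 4 higher and 2 lower, and the glycogen list 5 higher and 5 lower.

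Of 15 regulators 7 were higher, among them Txnip (1.51) and its relative Arrdc4 (0.93), and 5 lower, led by the growth factor-responsive transcription factor gene Myc (-2.64) and by Sirt6 (-0.82). After median-of-ratios scaling 10 were higher and 2 lower. Of 13 targets of hypoxia-inducible factor outside glycolysis 3 were higher, including Ankrd37 (0.98) and Bnip3l (0.82), and 4 lower, including Higd1a (-1.08) and P4ha1 (-0.60), and after that scaling 8 were higher and 1 lower. Txnip had 376 to 560.3 TPM in the Ly6G+ libraries, against 158 TPM in the HSCP Mdivi-1 and 165 TPM in the HSCP vehicle library. The populations of these 2 sorts differ in cell makeup by design, and the part of each cell type in these differences was not tested.

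Genes whose levels followed each of the 10 most closely over the 6 libraries were found by the root mean square difference of log2(TPM + 1), each gene centred on its own mean, among 9115 genes with a mean of at least 5 TPM. Nearest to Slc2a1 was Eps8, an adaptor of receptor tyrosine kinases (0.064), which had 19.0 and 20.3 TPM in Ly6G+ Mdivi-1, 12.6 and 13.7 TPM in Ly6G+ vehicle, 8.36 TPM in HSCP Mdivi-1 and 8.10 TPM in HSCP vehicle. Nearest to Hk2 was Prkd2, a protein kinase D (0.0232), with 26.3 and 26.7 TPM in Ly6G+ Mdivi-1, 35.1 and 37.8 TPM in Ly6G+ vehicle, 22.7 TPM in HSCP Mdivi-1 and 25.7 TPM in HSCP vehicle. The nearest genes were Timp2 for Slc2a3 (0.0608), Socs7 for Hk1 (0.027), Vps26b for Hk3 (0.0324), Lrr1 for Pfkl (0.042), 1700123O20Rik for Aldoa (0.015), Ubqln1 for Pgk1 (0.0127), Crtc2 for Pkm (0.0194) and Utp15 for Ldha (0.0344). These distances are a description over 6 libraries of 4 groups, and Slc2a1 had a larger distance to its nearest gene than any other of the 10.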

How the data were processed

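RNA was isolated with an RNeasy kit and sequenced from Illumina libraries, per the labels' protocols. The authors deposited 1 table of TPM per gene, not whole-number counts. Per the submitters' processing notes, bcl2fastq, CASAVA 1.8 and kallisto were used with mm10; kallisto's version, its annotation, the step from transcripts to genes and strand are not stated there, so antisense partners cannot be told apart. Identifiers were matched to GENCODE M21, which named 27458 genes and left 1529 without a symbol. The 10 genes, the lists and the tests were chosen with earlier results of these data known.

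limma 3.58.1 in R 4.3.3, with a trended and robust prior, was fitted on log2(TPM + 1) with a pseudocount of 1, over the genes that reached 1 TPM in 2 or more libraries, and p-values were adjusted over all genes tested. The Ly6G+ fit used 4 libraries (2 residual degrees of freedom), the population fit 6 (3). The fits were tested on simulated data. Library pairs shared 0 identical values among genes at 1 TPM or more. All 10 genes are named in every comparison of levels. For the difference between treatment effects, values on TPM as deposited are given only for genes with an unadjusted p under 0.05. From 8 other lists of glucose metabolism up to 4 genes per comparison could be named: the largest passing changes, then the most expressed. Further genes named are isoforms used in a share, the nearest gene of each of the 10, and the markers, of which 11 lists hold 91 genes. Dlat, Myc, Ddit4 and Pklr in HSCPs came from the same rule. Uniqueness is the percentage of 31-mers of the M21 transcripts found in no other gene. Alternatives were other pseudocounts (0.1 and 5), filters and scalings, left-out libraries (a lone library is then assumed to vary like the other arm's), a replicate block, and fits within each treatment.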

Additional observations from a re-analysis of the deposited data

How the results depend on the processing

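For Mdivi-1 against vehicle in Ly6G+ cells, 2 of the 10 genes passed on TPM as deposited, with other pseudocounts, a filter of 5 TPM, the other scalings and a fit of all 6 libraries. With no filter 0 passed in limma (adjusted p of 0.0516 for Slc2a1 and 0.0709 for Hk2; 4 at an unadjusted p under 0.05), 0 passed when any library was left out, and 1 with the replicate block (adjusted p of 0.0429 for Slc2a1 and 0.0616 for Hk2). Same-numbered Ly6G+ libraries did not deviate together (correlation of deviations -0.03 over 11775 genes), so they share only a number. Genes called among all tested numbered 789, against 218 with no filter, 22 to 279 with a library left out and 325 with the replicate block. No paired analysis was possible between the populations because no HSCP library carries a number. Signs turned only for differences that did not pass: Pfkl to 0.0036 and 0.010, Pgk1 to 0.042 and 0.049 and Pkm to 0.029 and 0.036 under median-of-ratios and upper-quartile scaling, and with a library left out Pfkl ranged from -0.28 to 0.18 and Pkm from -0.056 to 0.0069. Between the populations Aldoa turned to 0.15 and 0.090 under those scalings, and 6 to 9 of the 10 passed. Pkm ranged from -0.0082 to 0.087 with a library left out, the lowest being the same contrast as within Mdivi-1 libraries. For the difference between treatment effects, Hk3 turned to 0.086 and Pkm to 0.0092 after median-of-ratios scaling. With a library left out, share differences with Mdivi-1 ranged from -3.48 to 3.23 percentage points for Pfkl, -2.03 to 4.49 for Pfkp and -0.00815 to 0.00894 for Aldoa, and that of Aldoa between populations from -0.0875 to 0.0401. The cause of these changes was not tested. Depth is unknown, so its limit on low genes cannot be given.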
